A study of Mus musculus with 2 samples.

Results

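Colony stimulating factors and related growth cytokines decide how many myeloid and lymphoid cells are made and how long they live, and the genes described here encode the receptor chains through which cells receive them. The set held 7 genes, Csf1r, Csf2ra, Csf2rb, Csf3r, Flt3, Kit and Il7r, out of 32285 genes counted, and was chosen by function, with earlier results of these data known. All 7 were found by symbol and gene identifier in both libraries. The cells were live CD45+ leukocytes sorted from the adrenal glands of C57BL/6 wild-type mice aged 7 weeks, with 1 library from females and 1 from males and no treatment, transgene or deletion in either. The number of animals pooled into a library was not given in the sources used here. Single-cell RNA sequencing from the 3′ end of transcripts gave whole counts of unique molecular identifiers (UMIs, each standing for a captured transcript), with 15020494 UMIs in 3693 female cells and 9014391 UMIs in 2450 male cells after filtering, and medians of 3491 and 2988 UMIs per cell. Only 2 barcodes occurred in both libraries.

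As background, Csf1r, Kit and Flt3 are receptor tyrosine kinases of the same family. CSF1R binds CSF1 and IL-34 and keeps macrophages and many monocytes alive, KIT binds stem cell factor (Kitl) and is required by mast cells, and FLT3 binds FLT3 ligand and drives the development of dendritic cells. Csf2ra and Csf2rb encode the ligand-binding and the shared signalling chain of the GM-CSF receptor, and the latter chain also serves the receptors for IL-3 and IL-5. CSF3R binds G-CSF, the main growth factor of neutrophils, and IL7R pairs with the common gamma chain (Il2rg) for IL-7 or with CRLF2 for TSLP and is needed by T cells and innate lymphoid cells.

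The genes lie apart in the mouse genome (GRCm38). Csf3r (ENSMUSG00000028859) occupies chr4:126024550-126044440 on the plus strand, Kit (ENSMUSG00000005672) chr5:75574916-75656722 on the plus strand and Flt3 (ENSMUSG00000042817) chr5:147330741-147400489 on the minus strand. Il7r (ENSMUSG00000003882) occupies chr15:9505788-9530176 on the minus strand and Csf2rb (ENSMUSG00000071713) chr15:78325752-78353847 on the plus strand. Csf2ra (ENSMUSG00000059326) occupies chr19:61223957-61228429 on the minus strand, and Csf1r has the identifier ENSMUSG00000024621. No counted gene overlapped a member on the same strand, whereas Hmgxb3 overlapped Csf1r and Gm26597 overlapped Flt3 on the opposite strand. Csf2rb has a close copy, Csf2rb2 (ENSMUSG00000071714, chr15:78282507-78305721, minus strand), and 16.4% of the 55-base stretches of its longest coding transcript, 55 bases being the length of the cDNA read, also occurred in Csf2rb2. None of the 446 stretches in the last 500 bases, where reads of a 3′ assay start, was shared, so the counts of these genes are uncertain only for reads away from that end.

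Upstream sequence is shown for Csf3r, Flt3 and Kit, receptors of neutrophils, dendritic cells and mast cells, to set members of different lineages side by side. Each line gives the 140 bases from 250 to 111 bases before the RefSeq start (GRCm38.p6), 5′ to 3′ on the strand of the gene, at chr4:126024409-126024548 (plus), chr5:147400600-147400739 (minus) and chr5:75574737-75574876 (plus, the first of 2 listed starts of Kit). Capitals mark GAGGAA or its reverse complement TTCCTC, the core letters bound by PU.1 (Spi1), and AGATAA or TTATCT, those bound by GATA factors, which were searched on both strands.
Csf3r: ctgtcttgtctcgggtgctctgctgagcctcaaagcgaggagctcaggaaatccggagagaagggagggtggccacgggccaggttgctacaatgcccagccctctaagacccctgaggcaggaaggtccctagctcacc
Flt3: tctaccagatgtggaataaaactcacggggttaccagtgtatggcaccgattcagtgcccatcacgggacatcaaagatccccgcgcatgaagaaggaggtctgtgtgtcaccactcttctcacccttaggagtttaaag
Kit: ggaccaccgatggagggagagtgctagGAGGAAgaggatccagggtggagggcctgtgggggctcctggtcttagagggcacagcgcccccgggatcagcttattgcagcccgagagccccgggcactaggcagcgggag
The Kit window held 1 GAGGAA and the Csf3r and Flt3 windows held none, and AGATAA occurred in none of them. Of 32851 windows of the same length, 13.8% held the former motif and 6.22% the latter, and a match is a description of the letters, not of a bound site.

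Cells were grouped into classes by clusters made without the 7 genes, and each class was checked against markers of its own. Names are rebuilt ones and mean cells like those named. Macrophages were split into a Lyve1-high cluster (97 female and 170 male cells, led by Retnla, Folr2, Pf4 and Lyve1), an Aldh1a2-high cluster (88 and 100 cells) and the remaining adrenal gland macrophages (707 and 668 cells, led by C1qa and Apoe), called other macrophages here. Among the latter a cluster of 68 female and 143 male cells had medians of only 792 and 669 UMIs. Classical monocytes, nonclassical monocytes, type 1 and type 2 dendritic cells, plasmacytoid dendritic cells, neutrophils, NK cells, T cells, B cells and endothelial cells each formed their own clusters. Mast cells and group 2 innate lymphoid cells (ILC2) shared a cluster of 120 female and 82 male cells, were therefore picked cell by cell with a gate chosen after the clusters had been seen, and numbered 24 and 5 mast cells and 34 and 29 ILC2. The gate also gave 17 female and 18 male T cells and left 45 and 30 cells in no class. Levels of mast cells and ILC2 thus describe only the cells that the gate kept. No basophil was found by the same gate. Levels are given as CPM, the UMIs of a gene relative to all UMIs of the class in that library, with exact Poisson 95% intervals in brackets. The share of cells holding a gene was read from 1000 UMIs drawn at random per cell, so that classes of different depth could be set side by side. All intervals cover counting error only, since each sex had a single library and the spread between animals is unknown.

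**Figure D1:**
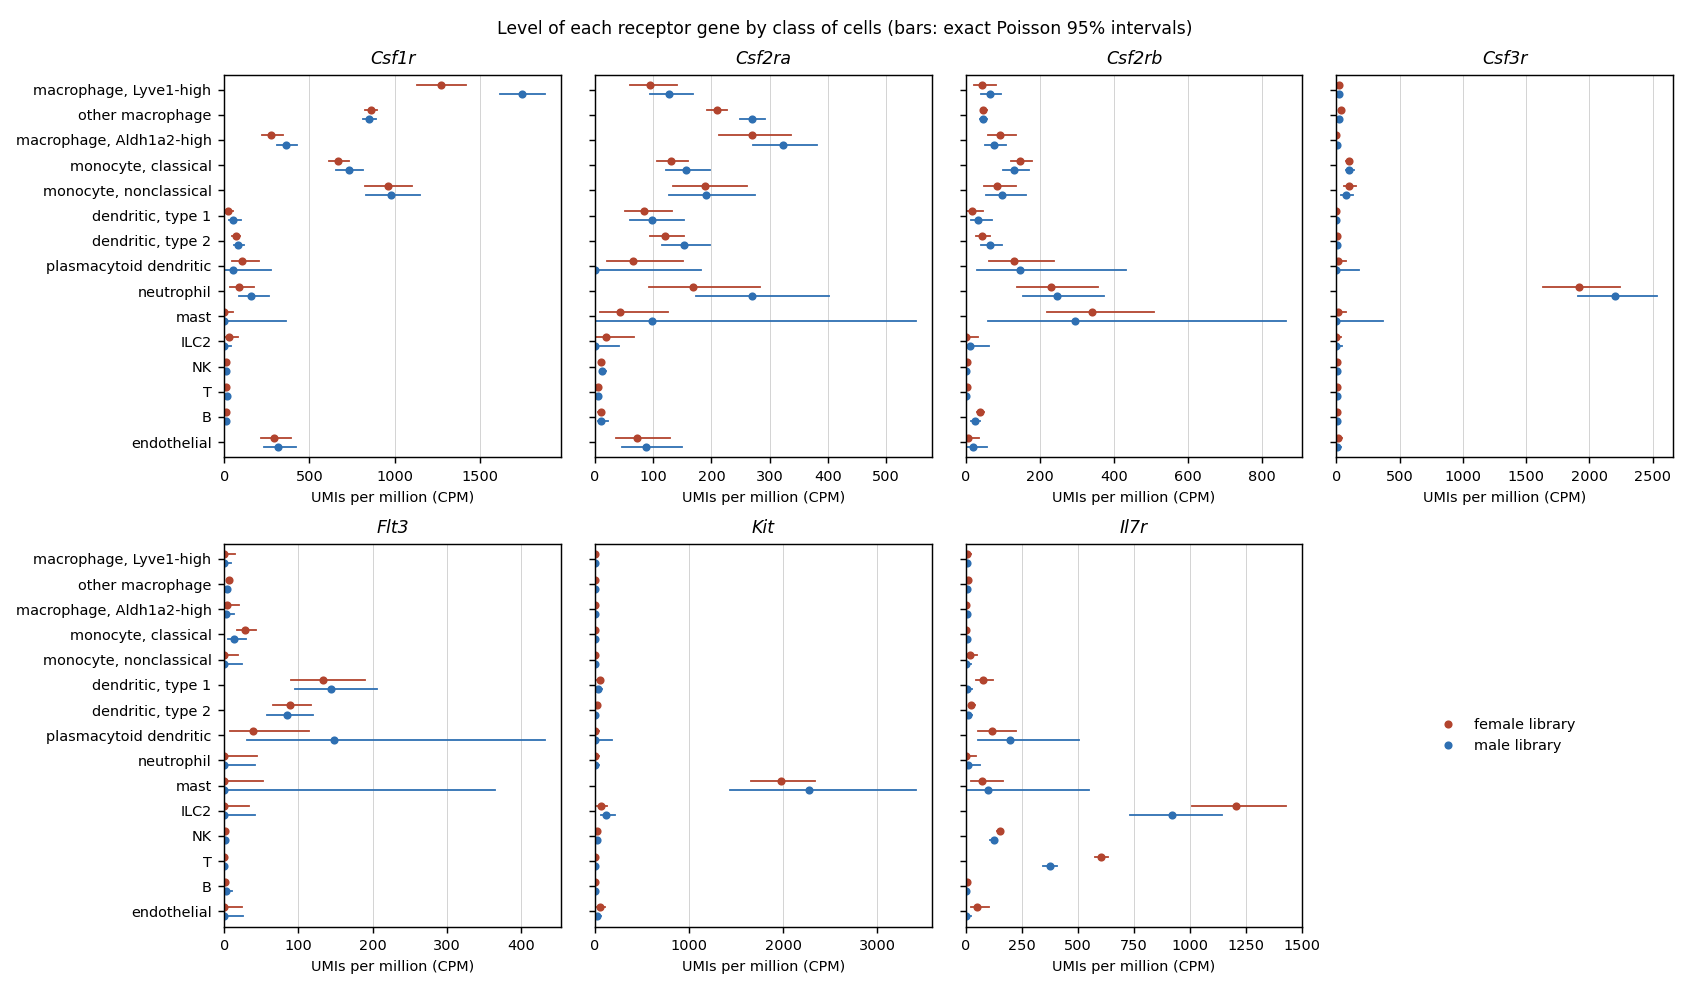
Level of each receptor gene in CPM (horizontal axes, linear and different for each gene) in 15 classes of cells, with the female library in red and the male library in blue; points are summed counts and bars exact Poisson 95% intervals. Csf3r stands out in neutrophils, Kit in mast cells and Il7r in ILC2 and T cells, whereas Csf1r and Csf2ra extend over macrophages and monocytes.

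Csf1r, the receptor on which tissue macrophages depend, was highest in Lyve1-high macrophages, at 1270 CPM (1133 to 1420, 310 UMIs) in the female and 1746 CPM (1619 to 1880, 699 UMIs) in the male library. Nonclassical monocytes followed with 958 and 980 CPM and other macrophages with 861 and 851 CPM, and these neighbours did not differ beyond their intervals in the male library (829 to 1150 against 814 to 889) or the female library (827 to 1103 against 827 to 895). Classical monocytes were lower at 669 and 732 CPM, with ratios to other macrophages of 0.778 (0.705 to 0.856) and 0.86 (0.762 to 0.967). Lyve1-high cells exceeded other macrophages 1.48-fold (1.31 to 1.66) in the female and 2.05-fold (1.88 to 2.24) in the male library.

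Aldh1a2-high macrophages stood apart from this order. Their Csf1r was 277 CPM (219 to 344) in the female and 362 CPM (307 to 424) in the male library, so that other macrophages exceeded them 3.11-fold (2.49 to 3.93) and 2.35-fold (1.99 to 2.78). At equal depth 20.5% and 30.9% of Aldh1a2-high cells held a Csf1r UMI, against 68.8% and 78.8% of Lyve1-high cells and 51.8% and 53.0% of other macrophages. T cells, which should lack the gene, gave 1.47% and 1.92% (10 of 678 and 7 of 364 cells). NK and B cells held 9.26 to 12.3 CPM, at the level of the T cells (10.2 and 15.3 CPM), and are read as background.

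Dendritic cells held little Csf1r. Type 2 cells had 66.3 and 81.4 CPM and type 1 cells 22.2 and 54.3 CPM, from 5 and 11 UMIs. Neutrophils held 84.5 and 157 CPM from 7 and 14 UMIs. No Csf1r UMI was seen in 24 female and 5 male mast cells. Endothelial cells held 293 and 315 CPM, in 9 of 44 and 15 of 47 cells, beside 1320 and 1051 CPM of the macrophage gene C1qa. Without the 13 and 18 endothelial cells that had a C1qa UMI, an alternative chosen after seeing the data, Csf1r was 169 CPM (94.6 to 279) and 126 CPM (57.8 to 240), from 15 and 9 UMIs.

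Within other macrophages, cells with low levels of MHC class II transcripts held more Csf1r than those with high levels. The female library had 1189 CPM in 168 low and 731 CPM in 484 high cells, a ratio of 1.63 (1.5 to 1.76), and the male library 1119 CPM in only 19 low and 845 CPM in 524 high cells, a ratio of 1.32 (1.05 to 1.65). The genes of MHC class II took no part in forming the clusters. The clusters that make up the class also differed, with 1026 and 967 CPM in the largest female cluster (led by C1qa, Vcam1 and Itgb5), 758 and 831 CPM in that led by Ms4a7, 625 and 651 CPM in that led by C1qa, C3ar1 and Aif1, and 846 and 884 CPM in the cluster of low UMIs. Leaving the last cluster out, an alternative chosen after seeing the data, gave 861 and 849 CPM for the class.

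**Figure D2:**
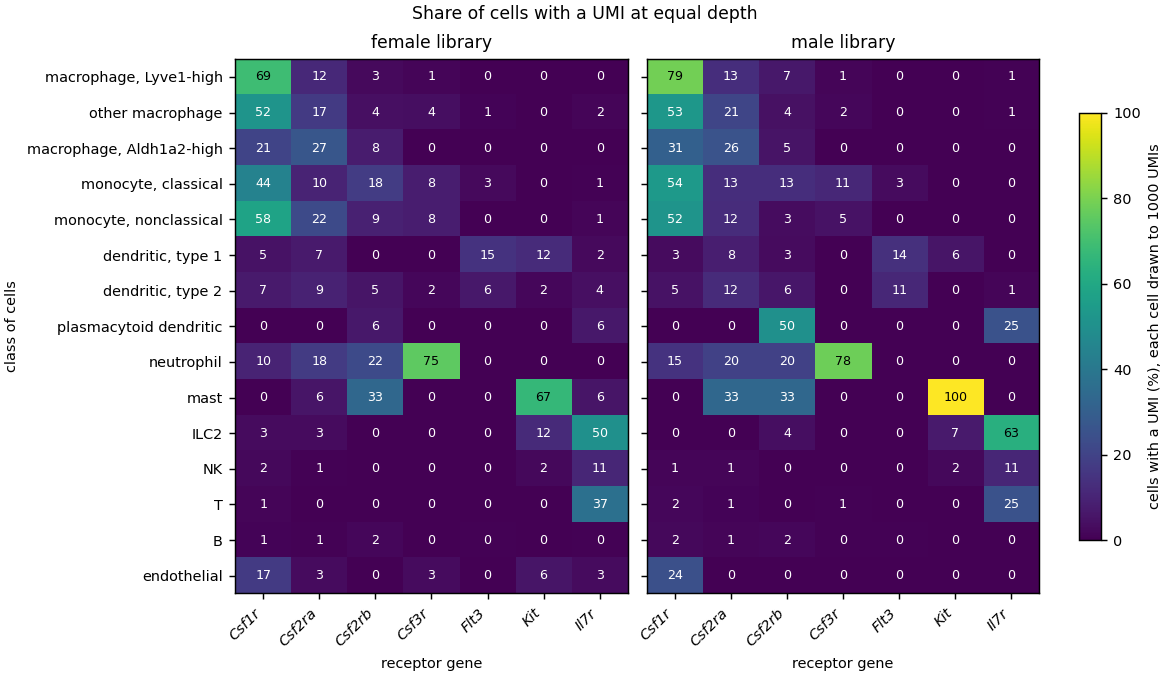
Share of cells with at least 1 UMI of each gene (columns) in each class (rows) after drawing 1000 UMIs from every cell, in percent, for the female library on the left and the male library on the right; cells with fewer UMIs were left out. In the male library mast cells and plasmacytoid dendritic cells rest on 3 and 4 cells. Csf1r marks 52 to 79% of Lyve1-high and other macrophages, and Csf3r 75 and 78% of neutrophils.

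Csf2ra, the ligand-binding chain of the GM-CSF receptor, followed another order over the same myeloid classes. Aldh1a2-high macrophages held the most, 270 CPM (213 to 337, 78 UMIs) in the female and 322 CPM (271 to 381, 137 UMIs) in the male library, beside other macrophages with 209 CPM (193 to 226) and 269 CPM (248 to 291). The ratio of other macrophages to Aldh1a2-high cells was 0.773 (0.61 to 0.992) and 0.834 (0.692 to 1.01), so that the male intervals did not separate them. Neutrophils held 169 and 270 CPM, nonclassical monocytes 190 and 191 (119 and 88 CPM when each cell was gated by its markers), classical monocytes 131 and 156, type 2 dendritic cells 120 and 152 and type 1 dendritic cells 84.4 and 98.7 CPM. T cells gave 5.8 and 5.56 CPM as background.

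Lyve1-high macrophages, where Csf1r was highest, held 94.2 and 127 CPM of Csf2ra, 0.451 times (0.284 to 0.684) and 0.474 times (0.349 to 0.631) the level of other macrophages. At equal depth 11.7% and 13.1% of them had a Csf2ra UMI, against 26.9% and 25.5% of Aldh1a2-high cells. In both libraries Lyve1-high cells thus held more Csf1r and less Csf2ra than other macrophages. Without equal depth, 41.9% of female and 40.3% of male other macrophages held both genes, compared with 17.5% and 20.0% of Lyve1-high and 31.8% and 42.0% of Aldh1a2-high cells.

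Csf2rb, the signalling chain shared by the receptors for GM-CSF, IL-3 and IL-5, was high in mast cells (342 CPM, 219 to 508, in the female library; 296 CPM, from 3 UMIs, in the male) and in neutrophils (229 CPM, 138 to 358, and 247 CPM, 155 to 374). Classical monocytes held 148 and 132 CPM, 3.10-fold (2.40 to 4.01) and 2.80-fold (2.00 to 3.87) more than other macrophages, which held 47.7 and 47.1 CPM. Plasmacytoid dendritic cells held 130 and 148 CPM, from 10 and 3 UMIs in 20 and 8 cells. The summed B cell markers of these cells were 46252 and 788 CPM, against 20083 and 14191 CPM in B cells, which hold Csf2rb themselves, and their part in the female value was not tested. Aldh1a2-high macrophages held 93.4 and 77.7 CPM, and the ratio of other macrophages to them was 0.511 (0.336 to 0.802) and 0.606 (0.407 to 0.924). Without the 5 cells with the most UMIs of the gene they held 52.2 and 40.4 CPM, and other macrophages 42.9 and 43 CPM. Those 5 cells are a larger part of 88 and 100 Aldh1a2-high cells than of 707 and 668 other macrophages. The removal is thus not the same for both groups. Nonclassical monocytes held 84.8 and 98.6 CPM, with 52.9% and 73.3% of the UMIs in 5 cells, Lyve1-high cells were at 45.1 and 64.9 CPM, and T cells at 2.39 CPM in the female library. The 5 neutrophils with the most Csf2rb carried much of the female value, which was 118 CPM without them, and the value of female mast cells was 207 CPM without their own 5.

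B cells held Csf2rb mostly in a single cluster. The cluster led by Igkc, Ms4a1 and Mzb1, a gene of antibody-secreting and innate-like B cells, had 60.2 and 50.9 CPM (57 and 16 UMIs), against 15.8 and 4.92 CPM (13 and 2 UMIs) in the larger cluster led by Cd79a, Ebf1 and Ighd, a ratio of 3.82 (2.07 to 7.61) in the female library and 10.4 (2.43 to 92.8) in the male. Il5ra, which pairs with this chain in the IL-5 receptor, was found in B cells at 34.4 and 19.4 CPM and was 2.25-fold (1.26 to 4.21) higher in the Mzb1 cluster of the female library, with 44 and 17 UMIs. In the male library each cluster had 7 Il5ra UMIs, and the ratio was 1.29 (0.387 to 4.32). The level in all B cells, 39.5 and 25 CPM, was 21.2 and 10.8 CPM with a mitochondrial ceiling of 5%, and 32.4 and 10.4 CPM without the 5 cells with the most UMIs of the gene.

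Both GM-CSF receptor chains were seldom seen in the same cell. Classical monocytes held both in 11.5% (7.32 to 16.8) of female and 20.6% (13.4 to 29.5) of male cells, other macrophages in 8.63% and 9.73%, Aldh1a2-high macrophages in 14.8% and 12.0%, and neutrophils in 8.51% and 22.0%. Of other macrophages, 37.5% and 37.1% held only Csf2ra, and of mast cells 50% and 40.0% held only Csf2rb. Both chains were seen in 0 of 691 female and 0 of 374 male T cells. A chain can be present without a UMI and free RNA can add one, so the shares describe UMIs and not the cells that make both transcripts.

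**Figure D3:**
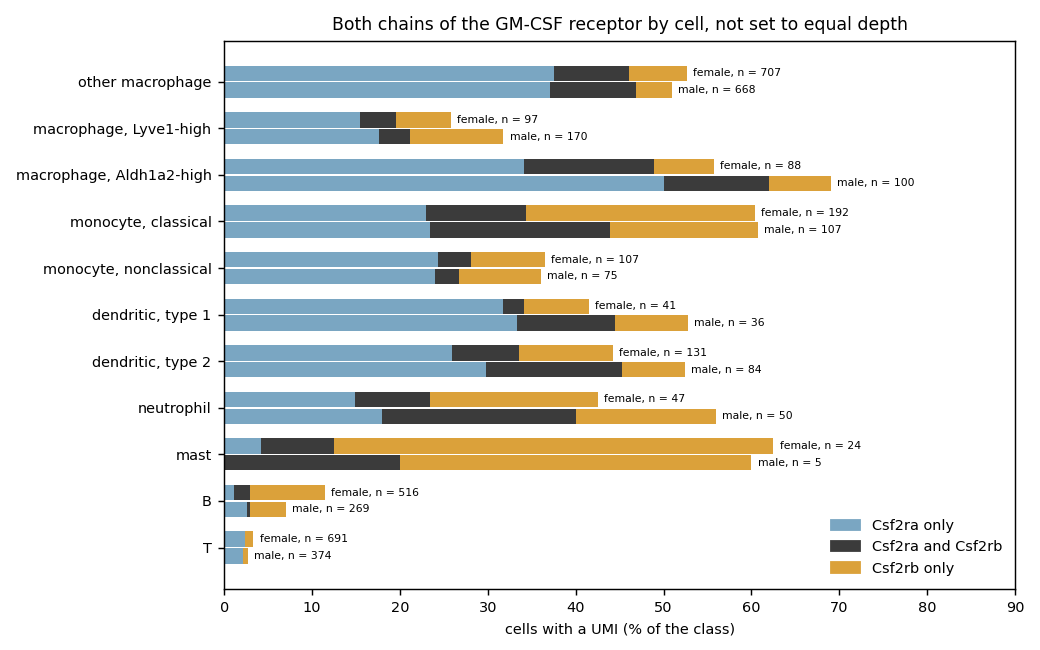
Share of cells of each class with a UMI of Csf2ra only (blue), of both chains (dark) and of Csf2rb only (ochre), in percent of the cells in the class, with the upper bar for the female and the lower bar for the male library and the number of cells beside each bar; cells were not set to equal depth. In the 3 groups of macrophages Csf2ra alone was the most frequent of these states, and in mast cells Csf2rb alone, while 11.5 and 20.6% of classical monocytes held both.

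Csf3r, the G-CSF receptor, was concentrated in neutrophils, where it reached 1919 CPM (1632 to 2242, 159 UMIs in 47 cells) in the female and 2203 CPM (1905 to 2534, 196 UMIs in 50 cells) in the male library. At equal depth 75% and 78.0% of neutrophils held it. Classical monocytes had 96 CPM (75.1 to 121) and 103 CPM (75.1 to 137) and nonclassical monocytes 99.8 and 72.3 CPM, values that overlap, with ratios of 1.04 (0.6 to 1.73) and 0.705 (0.329 to 1.38). Classical monocytes exceeded other macrophages 2.58-fold (1.89 to 3.5) and 5.01-fold (3.26 to 7.68). Of classical monocytes, 26.6% and 30.8% held Csf3r together with Csf1r.

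Among macrophages, Csf3r was low in other macrophages (37.2 and 20.5 CPM) and Lyve1-high cells (20.5 and 20.0 CPM, from 5 and 8 UMIs). Aldh1a2-high macrophages had 0 UMIs in 88 female cells, which allows up to 10.4 CPM, and 1 UMI in 100 male cells. T cells gave 1.02 and 2.78 CPM. Neutrophil transcripts can reach other cells as free RNA, and other macrophages held 85.9 and 6.12 CPM of S100a8, a neutrophil gene that stood at 79276 and 59413 CPM in neutrophils. Without the 52 female and 47 male macrophages that had a UMI of S100a8 or S100a9, an alternative chosen after seeing the data, Csf3r in other macrophages was 35.5 and 19.8 CPM.

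Flt3, the receptor that directs dendritic cell development, was highest in type 1 dendritic cells among the classes with at least 20 cells in each library, with 133 CPM (89.9 to 190, 30 UMIs in 41 cells) in the female and 143 CPM (95.9 to 206, 29 UMIs in 36 cells) in the male library. Type 2 cells had 89 CPM (66.3 to 117) and 84.2 CPM (57.2 to 119), and the ratio of type 1 to type 2 cells was 1.5 (0.921 to 2.40) and 1.70 (0.989 to 2.92), which counting error alone does not separate. At equal depth 14.6% and 13.9% of type 1 cells and 6.25% and 11.1% of type 2 cells held a UMI, against 0 of 856 female NK cells, which allows up to 0.35%. Plasmacytoid dendritic cells held 3 UMIs in each library, 39.1 and 148 CPM in 20 and 8 cells. Classical monocytes had 28 CPM (17.3 to 42.8) and 13.4 CPM (4.91 to 29.1), against 6.09 CPM (3.61 to 9.62) and 3.49 CPM (1.51 to 6.87) in other macrophages. The male intervals overlap and rest on 6 and 8 UMIs. No Flt3 UMI was found in neutrophils, mast cells, ILC2 or Lyve1-high macrophages.

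Csf2ra and Flt3 occurred together in 8 of 41 female and 6 of 36 male type 1 dendritic cells (19.5% and 16.7%) and in 13.7% and 14.3% of type 2 cells. Kit was also present in type 1 dendritic cells, at 48.9 CPM (24.4 to 87.4, 11 UMIs) and 34.6 CPM (13.9 to 71.2, 7 UMIs).

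Kit reached 1978 CPM (1663 to 2336, 139 UMIs) in the 24 female mast cells and 2272 CPM (1440 to 3409, 23 UMIs) in the 5 male mast cells. A UMI was present in 21 of 24 and 4 of 5 of them. Gata2, a transcription factor of mast cells, stood at 683 and 1580 CPM in the same cells. It was not among the genes of the gate that picked them, but it was not held out of the clustering. Of these mast cells, 54.2% and 60% held Kit with Csf2rb. ILC2 held 64.3 CPM (25.9 to 133, 7 UMIs) and 122 CPM (60.9 to 218, 11 UMIs) of Kit, and all 4 female and 8 male ILC2 with a Kit UMI also had one of Il7r. ILC2 and mast cells came from the same mixed cluster, and the part of the gate in these values was not tested.

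NK cells held Kit at 19.7 CPM (15.7 to 24.6, 80 UMIs in 58 of 864 cells) and 17.5 CPM (12.1 to 24.4, 34 UMIs in 24 of 369 cells). In T cells of the female library 3 UMIs were found in 691 cells, 1.02 CPM, and its interval (0.211 to 2.99) lies below that of the NK cells. Endothelial cells held 52 and 26.8 CPM, from 8 and 4 UMIs.

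Il7r was highest in lymphoid cells. ILC2 had the highest level of the 15 classes plotted, with 1204 CPM (1007 to 1429, 131 UMIs) in the female and 921 CPM (734 to 1142, 83 UMIs) in the male library, and T cells followed with 604 CPM (576 to 633) and 375 CPM (344 to 408). ILC2 exceeded T cells 1.99-fold (1.66 to 2.38) and 2.46-fold (1.92 to 3.10). This T class leaves out the T cells gated out of the mixed cluster, which held 1775 and 947 CPM, not less than ILC2. The summed T cell markers of ILC2 were 460 and 388 CPM, seen in 76.5% and 69.0% of cells. Their part in the Il7r values of ILC2 was not tested. NK cells held 154 CPM (142 to 166) and 124 CPM (109 to 141), and B cells 7.9 CPM in the female and 0 UMIs in the male library. At equal depth 50% and 63.0% of ILC2, 36.7% and 25.0% of T cells and 10.6% and 10.7% of NK cells had a UMI, against 0.401% of female B cells. The 17 Il7r UMIs of female type 1 dendritic cells all came from 1 cell. Plasmacytoid dendritic cells held 117 CPM (53.6 to 222, 9 UMIs in 3 of 20 cells) and 197 CPM (53.7 to 504, 4 UMIs in 4 of 8 cells), beside 169 and 1083 CPM of summed T cell markers, whose part in these values was not tested.

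The NK value rested on part of the cells. In the cluster led by Xcl1, Ccl5 and Cd7 Il7r was 213 and 179 CPM, and in that led by Gzma, Ccl5 and Nkg7 28.5 and 26 CPM, a ratio of 7.46 (5.35 to 10.7) in the female and 6.89 (4.26 to 11.8) in the male library. Kit was 20.7 and 24 CPM in the former and 17.7 and 5.77 CPM in the latter, with ratios of 1.17 (0.709 to 1.99) and 4.15 (1.46 to 16.2). Both clusters carried the NK genes Ncr1 and Klrb1c among their 10 leading genes. The summed T cell markers of NK cells were 1162 and 1205 CPM, seen in 88.3% and 89.4% of cells, against 5622 and 5673 CPM in T cells, and their part in the Il7r values was not tested.

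Among T cells, Il7r was higher in the cluster led by Cd8b1, Lef1 and Dapl1 (902 and 616 CPM) than in that led by Ccl5 and Cd3d (435 and 238 CPM). CD8 T cells held 685 CPM (636 to 738) in the female and 514 CPM (454 to 580) in the male library, and CD4 T cells 740 CPM (649 to 839) and 307 CPM (223 to 412). Gamma delta T cells held 796 and 409 CPM. The 17 female and 18 male T cells gated out of the mixed cluster held 1775 CPM (1420 to 2192) and 947 CPM (685 to 1275).

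**Figure D4:**
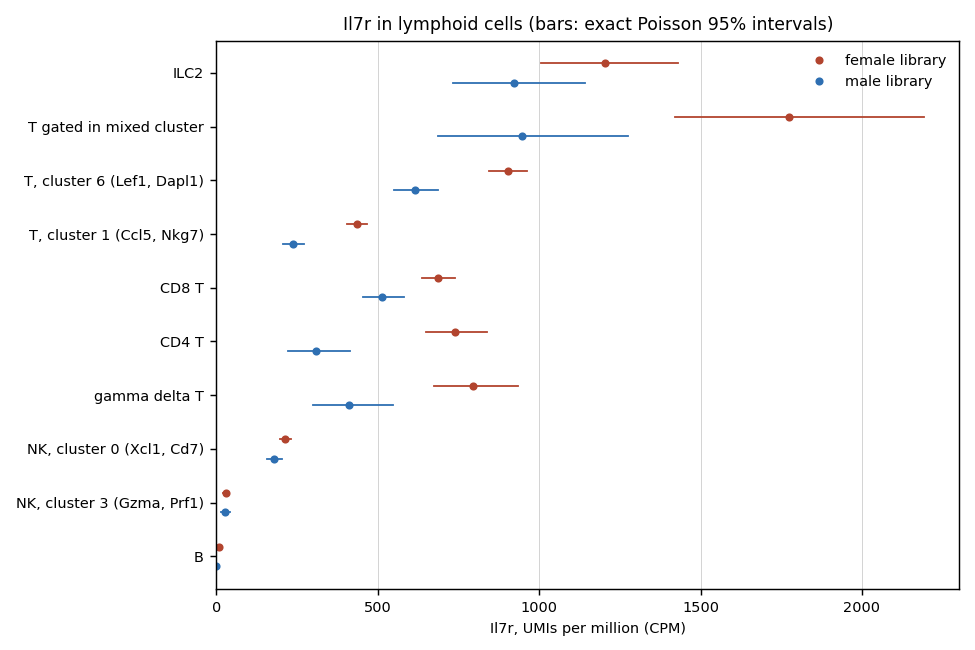
Il7r in CPM (horizontal axis, linear) in groups of lymphoid cells, with points for the summed counts of the female (red) and male (blue) libraries and exact Poisson 95% intervals. Groups of T cells overlap, since a cell belongs to a cluster and may also belong to a gated subset; the female value is above the male one in each T cell group shown.

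The libraries of the sexes were compared for each member in each class with at least 50 UMIs over both, which gave 31 pairs of gene and class. A pair was called where the CPM differed more than 1.5-fold, and 4 pairs were. In other macrophages 2 of 5 tested members were called, Csf3r and Il7r, where 9% of all genes tested in that class were. In T cells 1 of 2 was called, Il7r, against 7.56% of all genes, and in B cells 1 of 1, Csf2rb, against 10.8%. In the other 11 classes none of 23 pairs was called, where the share of all genes called ran from 7.19% in NK cells through 10.8% in Aldh1a2-high macrophages, 10.9% in nonclassical and 12% in classical monocytes, 14% in type 1 and 15% in type 2 dendritic cells, 15.1% in Lyve1-high macrophages, 15.5% in ILC2, 16.4% in endothelial cells and 18% in neutrophils to 34.6% in mast cells. With 1 to 5 members tested in a class, these counts say little beside the background shares.

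Il7r was higher in the female library in T cells and, to a lesser extent, NK cells. In T cells the level was 604 against 375 CPM, a ratio of 1.61 (1.46 to 1.78), and it was above 1 within both T cell clusters, at 1.47 (1.29 to 1.67) and 1.83 (1.57 to 2.13). CD8 T cells had a ratio of 1.33 (1.16 to 1.54), CD4 T cells 2.41 (1.74 to 3.40), gamma delta T cells 1.94 (1.39 to 2.78) and the T cells of the mixed cluster 1.88 (1.29 to 2.77). NK cells had 1.23 (1.06 to 1.44) and ILC2 1.31 (0.985 to 1.74), the latter not separated from 1. The median ratio over all genes tested in T cells was 0.982. Animals of the same sex may differ by as much, which a single library per sex cannot show.

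Csf3r in other macrophages was 37.2 CPM (110 UMIs) in the female and 20.5 CPM (47 UMIs) in the male library, a ratio of 1.82 (1.28 to 2.61). The neutrophil gene S100a8 was higher in the same female cells, as given above, and the Csf3r ratio was 1.79 (1.24 to 2.64) without the macrophages that had a UMI of S100a8 or S100a9, 1.97 (1.36 to 2.92) without the cluster of low UMIs and 1.87 (1.27 to 2.79) among cells with high MHC class II. Within the clusters it was 2.78 (1.52 to 5.42) in that led by C1qa, Vcam1 and Itgb5, from 54 and 14 UMIs, and 1.41 (0.77 to 2.67), not separated from 1, in that led by Ms4a7, from 32 and 18 UMIs. Neutrophils showed 0.871 (0.702 to 1.08) and classical monocytes 0.935 (0.637 to 1.39). The ratios of Il7r in other macrophages, 1.55 (0.859 to 2.90), and Csf2rb in B cells, 1.58 (0.932 to 2.82), were not separated from 1 by counting error. Within the Mzb1 cluster of B cells, the ratio of Csf2rb was 1.18 (0.669 to 2.21), from 57 and 16 UMIs. Without the 5 cells with the most UMIs in each library, Il7r in other macrophages fell from 12.2 and 7.85 CPM to 5.81 and 3.96 CPM, a ratio of 1.47, and the ratio of Csf2rb in B cells was 3.10.

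Differences that stayed below 1.5-fold in the main analysis lay in the opposite direction for Csf1r and Csf2ra. Csf1r in Lyve1-high macrophages was lower in the female library, with a ratio of 0.727 (0.634 to 0.833), which was 0.575 (0.46 to 0.714) and past 1.5-fold with a mitochondrial ceiling of 5%. In other macrophages the ratio was 1.01 (0.953 to 1.07). Among other macrophages with high MHC class II it was 0.865 (0.808 to 0.926), and among the 168 female and 19 male cells with low MHC class II 1.06 (0.846 to 1.35). Of 7 markers of the Lyve1-high cluster 6 were also higher in the male cells, from 2258 against 1323 CPM of Folr2 and 989 against 332 CPM of Fcna to 672 against 508 CPM of Cd163, while Timd4 was at 192 against 225 CPM, and the part of this in the Csf1r value was not tested. Csf2ra in other macrophages was 209 against 269 CPM from 617 UMIs in each library, a ratio of 0.776 (0.693 to 0.869), which was 0.767 (0.676 to 0.87) among cells with high MHC class II and 1.69 (0.871 to 3.77), from 161 and 9 UMIs, among those with low MHC class II. In neutrophils, monocytes, dendritic cells and mast cells no interval excluded 1 among the pairs with at least 50 UMIs. With fewer UMIs, Il7r in type 1 dendritic cells (17 and 1 UMIs, the former from 1 cell) and Kit in type 2 dendritic cells (12 and 0 UMIs) had intervals above 1.

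**Figure D5:**
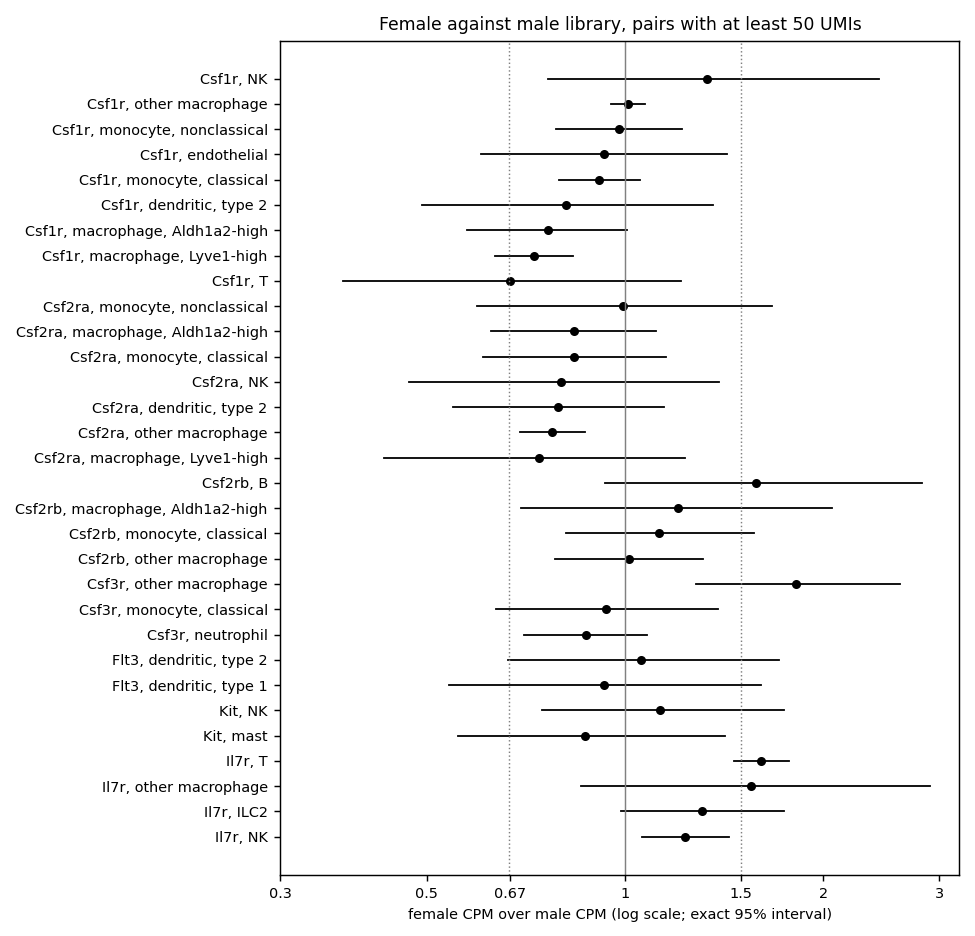
Ratio of the female to the male CPM (horizontal axis, log scale) for the 31 pairs of gene and class with at least 50 UMIs over both libraries, with exact 95% intervals; the solid line marks 1 and dotted lines 1.5-fold either way. Csf3r in other macrophages and Il7r in T cells lie past 1.5-fold with intervals above 1, and Csf1r in Lyve1-high and Csf2ra in other macrophages have intervals below 1.

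Restriction to a class was measured as the highest class level over the median of 13 classes that had at least 20 cells in each library, which leaves out mast and plasmacytoid dendritic cells. In these 13 classes 5 members had 100 UMIs in each library. Of them, 3 were at least 10-fold above the median in both libraries, Csf1r (15 and 11.1-fold), Csf3r (550 and 406-fold) and Il7r (60.3 and 184-fold), where 8.21% of 7867 genes were. Csf2rb was 5.26 and 5.25-fold above its median and was added at a 5-fold limit, which 14.7% of genes passed, and Csf2ra was 2.86 and 2.53-fold above it. Flt3 and Kit had too few UMIs in these classes for the measure, 127 and 79 for Flt3 and 122 and 63 for Kit. The mast cells left out held 139 and 23 of the 272 and 100 Kit UMIs. The median was 3.49 and 5.43 CPM for Csf3r and 5 CPM for male Il7r, each from 2 UMIs, so the sizes of these folds are rough.

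The genes whose levels over the same classes and libraries, 26 points in all, were most like those of a member were found by Pearson's r of log2(CPM + 10), as a description without a test, since the points share libraries and depth. For Csf1r they were Ctsb (r = 0.949), Adgre1 (0.939), which encodes the macrophage antigen F4/80, and Rin2 (0.936). For Csf2ra they were Alox5ap (0.948), Tgfbi (0.94) and Creg1 (0.932), and for Csf2rb they included Pirb (0.947) and Nfam1 (0.941). Csf3r was closest to Gm5150 (0.956), Clec4e (0.951) and Hp (0.945), and Il7r to Icos (0.935), a costimulatory receptor of T cells and ILC2, Podnl1 (0.931) and Tasp1 (0.92). For Flt3 the closest were Gng10 (0.944), Tnni2 (0.917) and Rala (0.822), and for Kit, without the mast cells, they included Rnf157 (0.79) and Praf2 (0.751).

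Of 10 ligands of these receptors, 2 had 100 UMIs in each library over the 13 classes, Flt3l and Kitl. So had 7867 of the 32285 genes. Kitl passed the 10-fold limit, beside the 8.21% of all genes measured, in the endothelial cells that came through the sort, with 260 and 321 CPM, from 40 UMIs out of 120 in the female library and 48 out of 168 in the male. Lyve1-high macrophages also held Kitl, at 119 and 97.4 CPM, and Tslp, a ligand of IL7R with CRLF2, at 69.6 and 89.9 CPM, whereas other macrophages had no Tslp UMI. Flt3l was found at 50.8 and 61.8 CPM in T cells and 49.4 and 51.4 CPM in NK cells. Csf2, which encodes GM-CSF, was found in NK cells at 12.6 and 13.4 CPM, and in ILC2 at 138 and 88.8 CPM from only 15 and 8 UMIs. Il5 was found in ILC2 from 4 and 5 UMIs and Csf1 in neutrophils from 8 and 11 UMIs, and these ILC2 and neutrophil values were picked after they had been seen. No UMI of Csf3 or Il3 was found in either library.

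Of 13 partner and related receptors 7 could be measured for restriction, and Il2ra (368 and 399 CPM in ILC2) and Il2rb (932 and 1146 CPM in NK cells) passed the 10-fold limit, as did the same 8.21% of all genes. Il2rb was not held out of the clustering and was among the 10 leading genes of an NK cluster, so that its restriction is a description. Il2rg, the partner of IL7R, was highest in ILC2 (441 and 455 CPM), then NK cells (337 and 316 CPM) and T cells (295 and 289 CPM). Crlf2 was spread over neutrophils, type 2 dendritic cells and macrophages, with 91.3 and 79.8 CPM in other macrophages. Il3ra was highest in Aldh1a2-high (76.1 and 65.9 CPM) and Lyve1-high macrophages (65.5 and 57.4 CPM, from 16 and 23 UMIs).

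Of 16 signalling genes and inhibitors 15 could be measured and 3 passed the limit, beside the 8.21% of all genes. Cish, an inhibitor induced by STAT5, was highest in ILC2 (257 and 322 CPM) and Socs3, an inhibitor of STAT3 signalling, in neutrophils (205 and 303 CPM, from 17 and 27 UMIs). Of 10 transcription factors known to act on the members 8 could be measured and 3 passed, against the same 8.21%, but these genes took part in the clustering. Spi1, which encodes PU.1, was spread over the myeloid classes, with 772 and 832 CPM in neutrophils, 693 and 750 CPM in nonclassical monocytes, 383 and 405 CPM in other macrophages. Between the sexes, none of 15 signalling genes tested in NK cells was past 1.5-fold, where 7.19% of all genes were, and in T cells 2 of 15 were, both higher in the male library, where 7.56% of all genes were, with a median ratio over the list of 0.798 against 0.982 over all genes. In other macrophages 1 of 12 was past it (9% of all genes), in B cells none of 9 (10.8%), in classical monocytes 2 of 8 (12%) and in type 2 dendritic cells 4 of 7 (15%), with 2 in each direction. Lyve1-high macrophages had 1 of 6 (15.1%), Aldh1a2-high macrophages none of 6 (10.8%) and nonclassical monocytes 1 of 5 (10.9%), and the other classes plotted had at most 2 genes tested.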

How the data were processed

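Per the labels, the authors sorted live CD45+ cells, made 3′ libraries (10x v3.1 chemistry), counted UMIs against mm10 with Cell Ranger 4.0.0 and removed noise barcodes with DropletUtils 1.4.3. The deposited values are raw UMI counts per gene and barcode, not normalized, for 3963 female and 2685 male barcodes (16218309 and 9512670 UMIs).

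Barcodes with at least 200 genes and at most 15% mitochondrial UMIs were kept. The study states a ceiling of 1.2%, which would keep 327 female and 359 male barcodes, whereas the study kept most of them, so its ceiling may be on another scale. The threshold of Scrublet (scanpy 1.11.5) marked 2 female and 10 male barcodes, so the highest-scoring 0.8% per 1000 barcodes (124 and 52) were removed instead. Cells were clustered with Seurat 5.3.0 in R 4.3.3 (2000 integration features, 20 principal components, resolution 1), with 79 genes held out, among them the members, their ligands, partners other than Il2rb, signalling genes and MHC class II genes. Of 21 clusters 20 were named from marker lists by a rule set after the clusters were seen: at least 3 markers raised 2-fold and seen in 20% of cells, a marker in 75% of cells, and no more markers of another class among the 10 leading genes. The mixed cluster was gated per cell (at least 2 UMIs of a list and 3 times any other list). Low and high MHC class II cells were divided at 9 UMIs per 1000 of Cd74, H2-Eb1, H2-Ab1 and H2-Aa (Otsu threshold).

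Counts were summed per library and class. CPM carries exact Poisson, shares Clopper-Pearson and ratios exact conditional binomial 95% intervals, which cover counting error only, and a count of 0 allows up to 3 counts. No test across animals was possible and no p-value is given. The ratio was tested on simulated data. List genes were named with values where at least 1 class held 50 of their UMIs, and values in other classes can rest on fewer, and genes of like pattern were sought among those with at least 200 UMIs. Positions are from GENCODE M21, and upstream sequences from RefSeq, which had an entry for 6 members. The members and lists were chosen with earlier results of these data known. Alternatives tried were a gate on each cell, resolution 2, a 5% mitochondrial ceiling, no doublet removal, cells with at least 1000 UMIs, 2000 UMIs drawn, leaving out the 5 cells with the most UMIs and dividing by the median ratio. Some genes and the subsets they define are not reported here.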

Additional observations from a re-analysis of the deposited data

How the results depend on the processing

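No paired analysis was possible because each sex had 1 library. Of the main values, 153 recomputed ones stayed within the counting interval of the reported value and 10 did not. When each cell was gated by its markers, Csf1r in male other macrophages was 891 CPM, Il7r in T cells was 695 CPM in the female and 423 CPM in the male library, and the female over male ratio of Flt3 in type 2 dendritic cells turned from 1.06 to 0.659 (0.27 to 1.52), neither separated from 1. With a mitochondrial ceiling of 5%, Il7r in female T cells was 561 CPM and the ratio of Csf1r in Lyve1-high macrophages was 0.575, which lies past 1.5-fold. Without the 5 cells with the most UMIs of the gene, which lowers any level by construction, Csf2rb was 118 CPM in female neutrophils, Csf3r was 1588 and 1845 CPM in female and male neutrophils, and Il7r was 344 CPM in male T cells. The cause of the shifts under the gate and the ceiling was not tested. The ratio of Il7r in T cells ran from 1.59 to 1.68 and that of Csf3r in other macrophages from 1.62 to 1.97 over all alternatives tried, with intervals above 1 throughout. The number of pairs of gene and class past 1.5-fold was 3 of 27 with the 5% ceiling, 5 of 21 with the gate, 4 of 21 without the 5 cells, 6 of 29 without doublet removal and 4 or 5 of 31 otherwise, against 4 of 31. The gate on each cell found no Lyve1-high macrophages and gives no value for them. Mast cells (5 in the male library) and plasmacytoid dendritic cells (8) limit every value that rests on them, and levels of Flt3 and Kit outside their main classes rest on fewer than 50 UMIs in most classes.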
